A study of Mus musculus with 20 samples.

Results

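Cytosolic ribosomal protein genes are described here across resistant and sensitive cultures of 2 mouse myeloma lines under bortezomib, an inhibitor of the proteasome. The members were chosen by name alone: every probe whose gene symbol is Rpl or Rps followed by a number, with an optional suffix, plus Rplp0, Rplp1, Rplp2 and Rpsa, without S6 kinases and pseudogenes. The rule found 63 genes of 19057 named genes, with 93 of 45281 probes. By role, 30 genes encode proteins of the large subunit (60S), 23 of the small subunit (40S), 3 the P stalk, and 7 are paralogs or related proteins. Rpl5, Rpl11, Rpl7, Rpl10, Rps27 and Rps27a had no named probe here, so the family is not complete.

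The lines 595sp and 589bm carry Bcl-XL and Myc transgenes on a mixed FVBN and BL/6 background, per the labels, and the labels do not name the promoters that drive them. Each line had a culture resistant to bortezomib and a sensitive one, and bortezomib at 33 nM was applied to each for 2, 8, 16 or 24 h beside a 0 h sample, with 1 array per time. All 4 cultures carry both transgenes, each is a single culture, and none has an untreated array after 0 h, so drug and time in culture cannot be told apart. The 2 lines serve as the replicates of each of the 10 groups, which limits the precision.

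Cytosolic ribosomal proteins assemble with ribosomal RNA in the nucleolus into the large and small subunits that carry out translation. Their messages are abundant, begin with a run of pyrimidines (the TOP motif) through which mTOR and Larp1 control their translation, and are made in roughly balanced amounts. Surplus ribosomal proteins are ubiquitinated and degraded by the proteasome, the target of bortezomib, and plasma cell tumours depend on a high rate of protein synthesis.

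The 589bm resistant 2 h array was left out by the rule. It carried almost no signal: only 0.144% of probes stood above 2 times the array's median, where the remaining 19 arrays had 13.4% to 20.3%. For the 5 arrays titled 595spVR the characteristics contradict the titles, and the titles were followed. Of the plasma and B cell markers, 7 of 9 had a named probe: Mzb1, Cd79b, Xbp1 and Irf4 averaged log2 signals of 14.26, 12.06, 11.17 and 8.86, while Sdc1, Prdm1 and Jchain, at 6.99, 6.47 and 6.39, lay near the 6.47 median of all probes. Among the T cell, macrophage, erythroid and stromal lists, the T cell gene Cd3g alone averaged over 8, at 9.07 with a range of 7.31 to 11.08, and Cd3d, Cd3e, Cd4 and Cd8a lay at 6.38, 6.56, 6.45 and 6.20. Summed over a list, signals at background also give a log2 above the 6.47 of a single probe. The log2 of the summed signal of the T cell list was 8.94 to 9.51 in 595sp resistant and 9.42 to 10.42 in 595sp sensitive cultures. It was 9.60 to 10.52 in 589bm resistant and 9.68 to 11.31 in 589bm sensitive cultures. That of the macrophage list was 7.97 to 8.10, 8.44 to 8.75, 8.13 to 8.19 and 7.89 to 8.34 in the same 4 cultures, with Adgre1 and Lyz2 at background, and the erythroid list reached 8.69 in 595sp sensitive and 9.59 in 589bm sensitive cultures. The part of these markers in the results below was not tested.

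The ribosomal protein probes were among the brightest on the arrays, and their normalized values varied little. Each gene was read from its brightest probe, on a log2 scale after quantile normalization, which gives all arrays the same spread of values and holds the brightest ranks at nearly fixed values, so a small spread there is in part set by that step. Probes differ in brightness for reasons other than the amount of RNA, so levels of different genes are not ranked as amounts. The mean log2 signal over 19 arrays was over 14 for 33 genes and over 13 for 41 genes, and 43 genes lay in the top 1% of all probes. The standard deviation (SD) over the arrays was under 0.25 for 41 genes and at least 0.5 for 4, namely Rpl22, Rps3a1, Rpl3l and Rpl22l1. Its median was 0.22 over the 58 members that passed the signal filter, beside 0.28 over all 11802 genes tested.

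**Figure D1:**
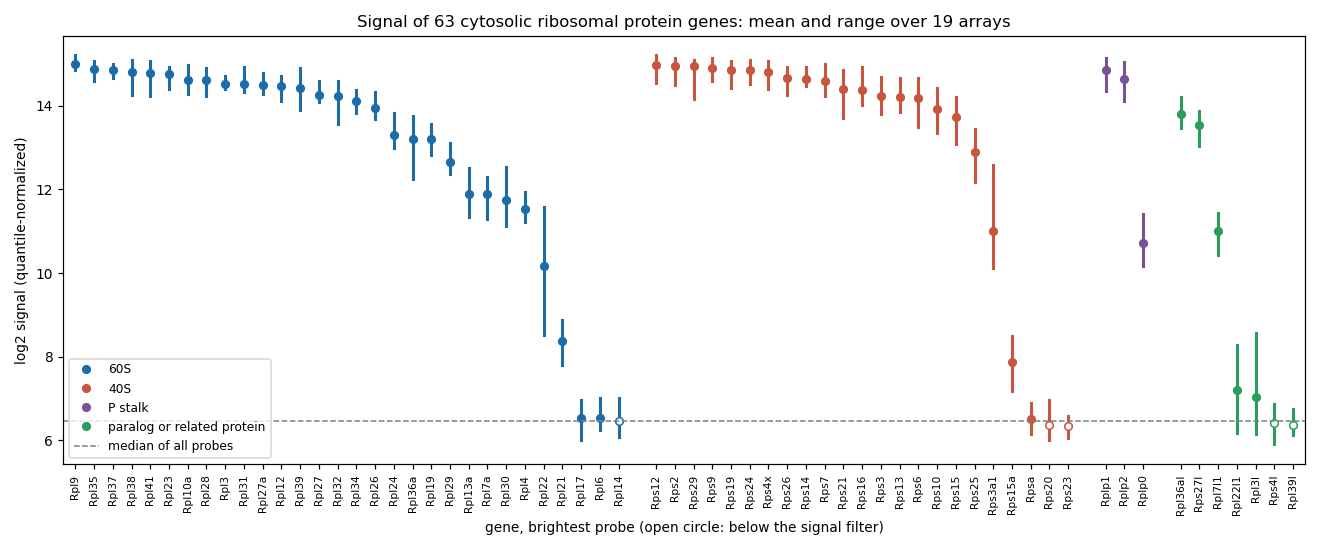
Mean log2 signal (points) and range over 19 arrays (bars) of the 63 genes, in 4 classes by role and sorted by mean within each class; open circles mark genes below the signal filter and the dashed line the median of all probes. Most genes sit above a log2 of 14 with short bars, while Rpl22, Rps3a1, Rpl22l1 and Rpl3l have long bars and 11 genes lie below 8.

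Among large-subunit genes, Rpl3, which lines the peptidyl transferase centre, had a normalized log2 signal of 14.53 ± 0.09 (SD, n = 19 arrays), with a lowest value of 14.39, a median of 14.54 and a highest value of 14.71. Its intensity before normalization was 14595 to 34402. Rpl9 was at 15.01 ± 0.09 after normalization and at 25883 to 39956 before it, where it was the brightest probe of the 589bm sensitive 0 h array. Rpl37 was at 14.87 ± 0.10 after normalization. Among small-subunit genes Rps14 was at 14.65 ± 0.11. The probes of Rpl14, Rps20, Rps23, Rpl39l and Rps4l, between 6.35 and 6.46, fell below the filter and were not tested. Rpl17, Rpl6 and Rpsa passed it at 6.54, 6.53 and 6.51, so close to the median of all probes that their changes say little about these genes. Of the 58 tested members, 29 of 30 belong to the large subunit, 21 of 23 to the small subunit, 3 of 3 to the stalk and 5 of 7 to the paralogs.

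The brightness of the family before normalization moved with the array. Its median intensity was 20410 to 29044 on the 595sp resistant and 11350 to 17717 on the 589bm resistant arrays, beside 14535 to 24036 on the 595sp sensitive and 11995 to 26578 on the 589bm sensitive arrays. The brightest probe of an array reached 31611 to 45448. After quantile normalization the family's median was 14.06 to 14.38 on all 19 arrays. That step can shrink or remove a common rise or fall of the whole family, and how far it did so here was not tested. Each comparison below was therefore also run with arrays scaled to the same median. Changes are relative to the other probes in either case.

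A promoter whose start site is the annotated 5′ end of the gene in RefSeq (GRCm38.p6) was found for 44 members. It was found for 10583 protein-coding genes in all. Each promoter spans 250 bases before that site and 50 bases from it. The 30 bases around the start, 15 before it and 15 from it, are shown for the 4 genes with the largest SD and for a pair of members with long pyrimidine runs, because the TOP motif sits there. Capitals mark the longest run of C and T.
Rpl22, chr4:152324421-152324450, plus strand: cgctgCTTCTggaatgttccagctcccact
Rpl22l1, chr3:28805493-28805522, plus strand: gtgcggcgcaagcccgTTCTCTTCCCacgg
Rpl3l, chr17:24727811-24727840, plus strand: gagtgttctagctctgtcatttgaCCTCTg
Rps3a1, chr3:86142654-86142683, minus strand: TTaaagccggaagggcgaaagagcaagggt
Rpl27a, chr7:109519180-109519209, plus strand: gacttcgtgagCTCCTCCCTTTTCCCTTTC
Rpl35, chr2:39005117-39005146, minus strand: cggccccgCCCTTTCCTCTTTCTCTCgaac

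The longest run was 5 bases in Rpl22, 10 in Rpl22l1, 5 in Rpl3l, 2 in Rps3a1, 19 in Rpl27a and 18 in Rpl35. Over the matched members the median was 6 bases, beside 4 over all matched genes, and 36.4% of members had a run of 8 or more, beside 11.6% of all matched genes. The sequence CCGGAAG, the core that ETS factors bind, was found on either strand of the 300-base promoter in 38.6% of members and 10.3% of all matched genes. ATGGC, the core of the YY1 site, was found on either strand from 15 bases before to 50 bases after the start in 9 of 44 members and 1586 of 10583 genes. The short run in Rps3a1 says only that these letters are not in this window, since annotated starts can lie off the starts in use.

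With quantile normalization few ribosomal protein genes changed in the sensitive cultures over 24 h of bortezomib, while median scaling, given below, placed the family's median lower at all 4 times. Against 0 h, no member passed an adjusted p of 0.05 (limma, Benjamini-Hochberg over all kept probes) at 2, 8 or 16 h, while 0%, 2.56% and 10.6% of all genes tested passed. At an unadjusted p under 0.05 there were 1, 1 and 3 of 58 members, beside 242, 1787 and 2962 of all 11802 genes tested. At 24 h 3 of 58 members passed, 1 higher and 2 lower, against 14.5% of all genes tested (8.24% higher and 6.24% lower), and none of the 29 large-subunit genes was among them. The 3 were Rpl3l, Rps27l and Rps3a1, and the times share their 0 h arrays.

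Rpl3l, a paralog of Rpl3 best known from muscle, had log2 signals of 7.25, 7.38, 8.01, 7.96 and 8.57 at 0, 2, 8, 16 and 24 h in 595sp sensitive cells and of 6.14, 6.49, 6.31, 7.09 and 6.70 in 589bm sensitive cells. Both lines were higher at 24 h than at 0 h, but the 2 lines did not overlap at any time and the 589bm values lay near background. It rose at 24 h by 0.94 (SE 0.26, adjusted p = 0.0253, limma; 1.32 in 595sp and 0.56 in 589bm). At 16 h it stood at 0.83 (SE 0.26) with an adjusted p of 0.0568 by limma.

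Rps27l, a paralog of Rps27 induced by p53, read 13.80, 13.76, 13.33, 13.23 and 13.11 at 0, 2, 8, 16 and 24 h in 595sp sensitive cells. It read 13.57, 13.68, 13.20, 13.59 and 13.04 in 589bm sensitive cells. In both lines the 24 h value was the lowest of the 5. It fell by 0.61 at 24 h (SE 0.18, adjusted p = 0.0352, limma; -0.69 in 595sp and -0.53 in 589bm).

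Rps3a1, a small-subunit protein at the mRNA exit, read 11.50, 11.67, 10.46, 11.29 and 10.20 in 595sp sensitive cells and 12.59, 10.77, 12.26, 10.88 and 10.49 in 589bm sensitive cells at the same times. The 24 h array was the lowest in both, yet the values went up and down by over 1 between neighbouring times. It fell by 1.70 at 24 h (SE 0.47, adjusted p = 0.0252, limma; -1.29 in 595sp and -2.10 in 589bm).

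These 3 calls rest on few arrays. Without the 589bm sensitive 0 h array all 3 missed the threshold, at 1.05 for Rpl3l, -0.73 for Rps27l and -1.25 for Rps3a1. Without the 595sp sensitive 24 h array all 3 missed it too, at 0.58, -0.64 and -1.76 in the same order. Without the 595sp sensitive 0 h array Rpl3l at 0.82 and Rps27l at -0.49 missed it, and without the 589bm sensitive 24 h array Rps27l at -0.58 and Rps3a1 at -1.65 did. Leaving out the 5 arrays titled 595spVR lost Rps27l, at -0.61.

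**Figure D2:**
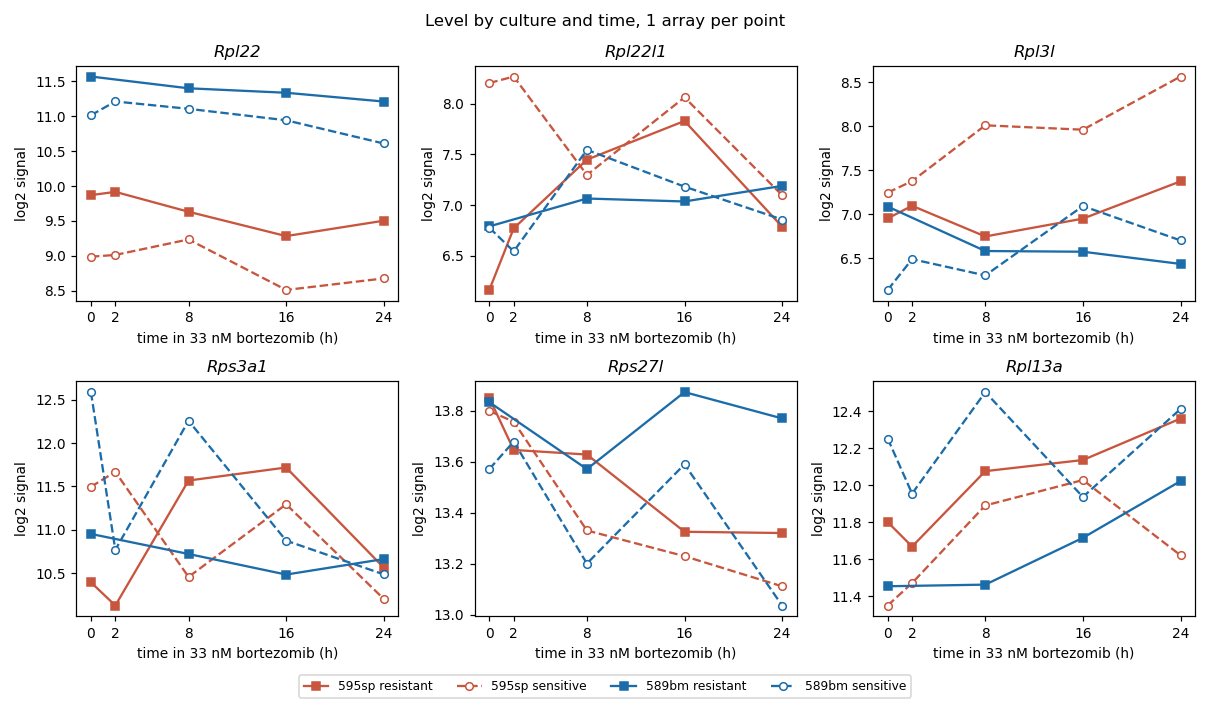
Log2 signal against time in bortezomib for 6 members, 1 array per point, in 595sp (red) and 589bm (blue), resistant (squares, solid) and sensitive (circles, dashed). Rpl22 separates the 4 cultures at every shared time, Rpl3l is highest in 595sp sensitive cells at every time, and Rps3a1 moves up and down within each sensitive culture.

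The remaining members are summarised by class for 24 h in the sensitive cultures. Of the 29 large-subunit genes 10 lay above 0 and 19 below, with a median log2 change of -0.07 and a range of -0.38 to 0.39. Of the 21 small-subunit genes 11 lay above 0 and 10 below, with a median of 0.00. Over all 58 members the median was -0.04, beside 0.02 over all genes, and 54 members changed by less than 0.5. The median size of change was 0.17 for members and 0.23 for all genes. Rps16 came next to the threshold at -0.43 (SE 0.17, adjusted p = 0.110, limma).

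How far the family as a whole shifted in the sensitive cultures depended on how arrays were scaled. With arrays scaled to the same median, the members' median in the sensitive cultures was -0.14, -0.07, -0.44 and -0.36 at 2, 8, 16 and 24 h, while the median of all genes stood at 0.06, -0.05, -0.17 and -0.11. Relative to that shift the members' median was -0.20, -0.02, -0.26 and -0.25 at the 4 times, against -0.06, -0.04, -0.01 and -0.05 with quantile normalization. The gap was nearly as large at 2 h as at 16 and 24 h and close to 0 at 8 h. Of the 59 members that passed the filter under median scaling, 2 were called at 16 h, both lower, and 3 at 24 h, again Rpl3l, Rps27l and Rps3a1. The shares of all genes called were 6.24% at 16 h and 7.51% at 24 h under that scaling.

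**Figure D3:**
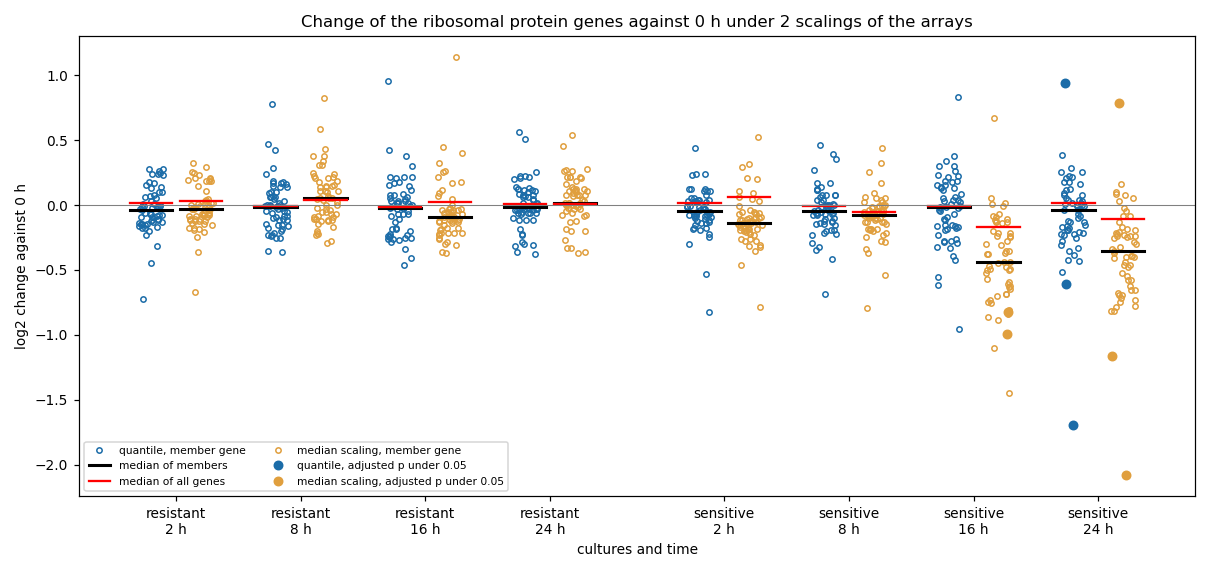
Log2 change against 0 h of each tested member (open circles; filled where adjusted p is under 0.05) at 2, 8, 16 and 24 h in resistant and in sensitive cultures, with quantile normalization (blue) and median scaling (orange). Black bars are medians of members and red bars medians of all genes; the 2 scalings part in the sensitive cultures at 16 and 24 h, where the black bars lie at -0.44 and -0.36 under median scaling and near 0 under quantile normalization.

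Probes of the same gene did not always move together. Of the 20 members with several kept probes, all probes had the same sign in 10 at 24 h in the sensitive cultures and in 7 at 16 h. Rpl38, a large-subunit protein that steers translation of Hox messages in mouse embryos, was read by a probe at 14.82 that stood at 0.29 (adjusted p = 0.376, limma) and by a dimmer one at 11.36 that fell by 1.26 (adjusted p = 9.23e-05, limma). The dimmer probe had fallen by 0.78 at 16 h (adjusted p = 0.00493, limma). For Rpl31, a protein at the peptide exit, the probe at 14.52 stood at -0.22 and the one at 10.61 fell by 0.72 (adjusted p = 0.0117, limma). For Rps24, a small-subunit protein mutated in some human Diamond-Blackfan anaemia, the brightest probe stood at 0.02 and the dimmest, at 8.06, rose by 0.68 (adjusted p = 0.0327, limma).

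By brightness, the 47 member probes over a log2 of 13 had a median change of -0.00 at 24 h, with 24 below 0. The 22 probes between 8 and 13 had a median of -0.28, with 17 below 0, and the 16 under 8 a median of -0.16, with 11 below 0. All kept probes of the same brightness had medians of -0.03, 0.01 and -0.00. The cause of these differences between probes was not tested, and probe sequences were not used here.

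**Figure D4:**
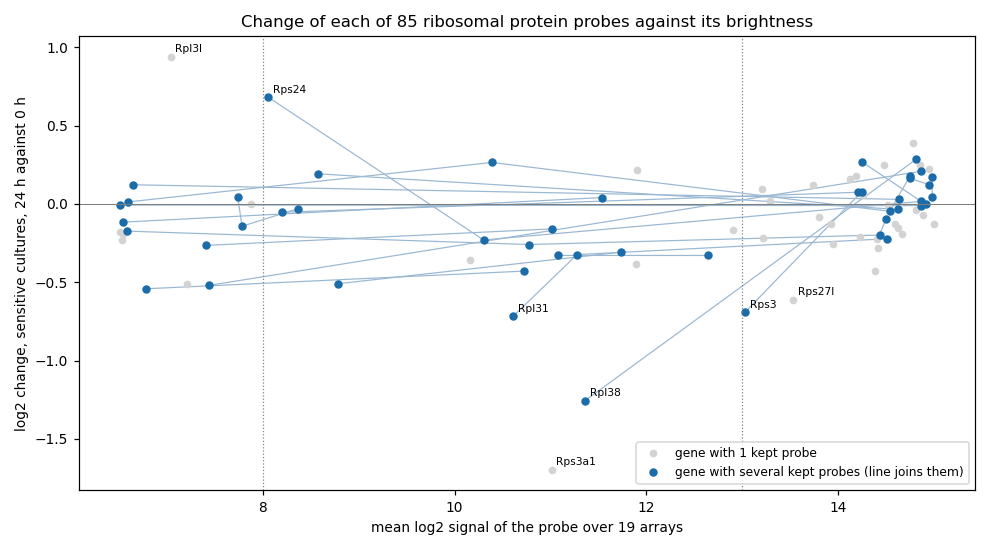
Log2 change at 24 h against 0 h in sensitive cultures for each of 85 kept probes, against the probe's mean log2 signal; lines join probes of the same gene and dotted lines mark signals of 8 and 13. The dimmer probe of Rpl38 lies at -1.26 and its brighter probe at 0.29, and probes over 13 scatter around 0.

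In the resistant cultures no member passed at any time. The 2 h value rests on 1 array, of 595sp, whose spread is taken from the other groups, and 0% of all genes passed there, and at 8, 16 and 24 h 0.203%, 1.33% and 1.42% did. At an unadjusted p under 0.05 there were 2, 4 and 2 of 58 members at 8, 16 and 24 h, beside 1244, 1813 and 1695 of all 11802 genes tested. Under median scaling no member passed the adjusted threshold at these times. The members' median change was -0.03, -0.01, -0.02 and -0.01 at 2, 8, 16 and 24 h. Rpl13a, a large-subunit protein known in human cells for silencing inflammatory messages, read 11.80, 11.67, 12.08, 12.14 and 12.36 in 595sp resistant cells at 0, 2, 8, 16 and 24 h, and 11.45, 11.46, 11.72 and 12.02 in 589bm resistant cells at 0, 8, 16 and 24 h. Its 24 h value was the highest in both, at a log2 change of 0.57 (SE 0.20; 0.56 in 595sp and 0.57 in 589bm), with an adjusted p of 0.215 by limma. Rpl22l1, the paralog of Rpl22, stood at 0.96 at 16 h (SE 0.38, adjusted p = 0.260, limma), made up of 1.67 in 595sp and 0.25 in 589bm.

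No member passed the test of the difference between the responses of the resistant and the sensitive cultures. Over 8, 16 and 24 h, 0 of 58 members passed, and 0.11% of all genes did. At an unadjusted p under 0.05 there were 3 of 58 members, beside 1391 of all 11802 genes tested. Rpl3l differed by -0.99 (SE 0.30, adjusted p = 0.265, limma; -0.86 in 595sp and -1.12 in 589bm). Rps3a1 differed by 1.39 (SE 0.54, adjusted p = 0.366, limma; 1.73 in 595sp and 1.05 in 589bm), and Rpl26, a large-subunit protein that binds p53 mRNA in human cells, by 0.49 (SE 0.20, adjusted p = 0.395, limma). The median over members was 0.03, beside -0.02 over all genes, and under median scaling 0.28 beside 0.14.

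Resistant and sensitive cultures of 1 line were compared over the shared times, so p-values measure the spread over times of single cultures. Within 595sp 11 of 58 members passed (18.97%), against 22% of all genes (10.8% higher and 11.2% lower). The higher ones were Rpl22, Rps6, Rps4x, Rps9, Rps7 and Rpl35, of which 4 belong to the small subunit, and the lower ones Rpl3l, Rpl22l1, Rpl21, Rps19 and Rps16. The 5 that passed in each of the 19 fits that left out 1 array were Rpl22, Rps6, Rps4x, Rpl3l and Rpl21.

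Rpl22, a large-subunit protein that binds RNA and that lymphocytes need for development in mice, read 9.87, 9.92, 9.63, 9.28 and 9.50 in 595sp resistant cells at 0, 2, 8, 16 and 24 h, against 8.99, 9.01, 9.24, 8.51 and 8.68 in 595sp sensitive cells. All 5 resistant arrays lay above all 5 sensitive ones. The difference was 0.76 (SE 0.11, adjusted p = 7.32e-05, limma), higher at 5 of 5 times.

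Rps6, the small-subunit protein phosphorylated by S6 kinases, averaged 14.25 ± 0.11 in 595sp resistant and 13.70 ± 0.17 in 595sp sensitive cells (SD, n = 5 arrays each). The resistant arrays ranged from 14.08 to 14.39 and the sensitive ones from 13.48 to 13.90, with no overlap. The difference was 0.55 (SE 0.10, adjusted p = 0.000553, limma). Rps4x, an X-linked small-subunit protein, differed by 0.37 (SE 0.09), higher at 4 of 5 times.

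Rpl3l read 6.95, 7.10, 6.75, 6.95 and 7.38 in 595sp resistant cells against 7.25, 7.38, 8.01, 7.96 and 8.57 in 595sp sensitive cells, lower at 5 of 5 times. The difference was -0.81 (SE 0.19, adjusted p = 0.00572, limma). Rpl22l1 read 6.16, 6.77, 7.45, 7.83 and 6.79 in 595sp resistant cells against 8.21, 8.27, 7.30, 8.06 and 7.10 in 595sp sensitive cells, and the groups overlapped. Its difference was -0.79 (SE 0.24, adjusted p = 0.0276, limma), made mostly by the 0 and 2 h arrays. Without either culture's 0 h or 2 h array the call was lost, at -0.47 to -0.61.

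Rpl21, a large-subunit protein, read 7.80 to 8.14 in 595sp resistant cells and 8.29 to 8.80 in 595sp sensitive cells, with no overlap. The difference was -0.55 (SE 0.13, adjusted p = 0.00479, limma), and its other probes gave -0.39 and -0.37 (adjusted p = 0.0366 and 0.0298, limma). The smaller differences were 0.27 for Rps9, 0.27 for Rps7, 0.23 for Rpl35, -0.32 for Rps19 and -0.30 for Rps16. They were lost in 8, 12, 10, 3 and 13 of the 19 fits that left out 1 array, and for Rps19 these were the fits without the 595sp resistant 2 h array or either 595sp 8 h array, at -0.25 to -0.31. Under median scaling 6 of 59 members passed, 4 higher and 2 lower, against 18.8% of all genes, and Rpl22, Rps6, Rps4x, Rpl3l and Rpl22l1 were among them.

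Within 589bm 11 of 58 members passed (18.97%), against 24.2% of all genes (13.2% higher and 10.9% lower). The higher ones were Rpl22, Rps27l, Rpl24, Rpl36al, Rps13 and Rpl27, and the lower ones Rpl13a, Rpl36a, Rps10, Rps21 and Rplp2. This split depended on the scaling: under median scaling 20 members passed, 0 higher and 20 lower of 59, against 15.2% of all genes, while the median of all genes moved by -0.09. The 5 lower genes passed under both scalings. Of the 6 higher ones, Rpl22, Rps27l and Rpl24 stood at 0.23, 0.06 and 0.01 under median scaling, and Rpl36al, Rps13 and Rpl27 lay below 0. The lists also depended on the probe read: of 20 members with several kept probes, 10 had probes of differing sign. Dimmer probes of Rpl29, Rpl31, Rpl38, Rps19 and Rps9 passed as higher and those of Rpl30 and Rpl7l1 as lower. The dimmer probe of Rplp2 stood at 0.02, beside -0.43 for the brighter.

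Rps10, a small-subunit protein ubiquitinated on collided ribosomes in human cells, read 13.86, 13.71, 13.36 and 13.73 in 589bm resistant cells at 0, 8, 16 and 24 h, against 14.42, 14.25, 13.90 and 14.11 in 589bm sensitive cells. All resistant arrays lay below all sensitive ones. The difference was -0.51 (SE 0.09, adjusted p = 0.000760, limma), and it was the only member difference within 589bm to pass in all 19 fits that left out 1 array.

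Rpl13a read 11.45, 11.46, 11.72 and 12.02 in 589bm resistant cells at 0, 8, 16 and 24 h, against 12.25, 12.50, 11.94 and 12.41 in 589bm sensitive cells. It was lower at 4 of 4 times, with an overlap between the resistant 24 h and the sensitive 16 h array. The difference was -0.61 (SE 0.14, adjusted p = 0.00469, limma), and without either 8 h array the call was lost at -0.47.

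Rpl36a, a large-subunit protein near the exit site, read 12.90, 12.71, 12.24 and 12.91 in 589bm resistant cells against 13.77, 13.73, 12.36 and 13.32 in 589bm sensitive cells at the same times. The difference was -0.61 (SE 0.17, adjusted p = 0.0160, limma). It was lost without either culture's 0 h or 8 h array, at -0.47 to -0.52. Rps21 differed by -0.48 (SE 0.12), lost without either 8 h array or the sensitive 0 h array at -0.38 to -0.40, and the stalk protein Rplp2 by -0.43 (SE 0.12), lost without either culture's 0 h or 8 h array at -0.31 to -0.39.

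Of the genes higher in 589bm resistant cells with quantile normalization, Rpl22 read 11.57, 11.40, 11.34 and 11.21 in them against 11.01, 11.11, 10.94 and 10.61 in sensitive cells at 0, 8, 16 and 24 h. The difference was 0.46 (SE 0.12, adjusted p = 0.0114, limma), higher at 4 of 4 times, and missed the threshold at 0.41 and 0.42 without either 24 h array. Rps27l differed by 0.41 (SE 0.10), likewise lost without either 24 h array at 0.30 and 0.31. Rpl24, a large-subunit protein at the bridge between the subunits, differed by 0.37 (SE 0.10), lost without either 16 h array at 0.25. Rpl36al, Rps13 and Rpl27 differed by 0.34, 0.31 and 0.28 and were lost in 6, 16 and 9 of the 19 fits.

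Read by the brightest probe of each gene, Rpl22 was the 1 member that passed in both lines, higher in the resistant culture of each. Its 589bm call was lost under median scaling. By any kept probe, Rpl29, Rpl38, Rps13 and Rps9 also passed as higher in both lines. For Rpl29 and Rpl38 this was the dimmer probe, at 0.48 and 0.63 in 589bm and at 0.34 and 0.41 in 595sp. Rps13 passed by a different probe in each line. The test of the difference between the lines passed for 7 of 58 members (12.1%), against 22.6% of all genes (10.3% higher and 12.2% lower). The resistant minus sensitive difference was larger in 595sp for Rpl13a by 0.95 (SE 0.19, adjusted p = 0.00157, limma), made up of 0.34 in 595sp and -0.61 in 589bm. It was larger in 595sp for Rps10 by 0.52 (SE 0.12), with 0.01 in 595sp and -0.51 in 589bm, for Rps6 by 0.47 (SE 0.15) and for Rps7, which binds Mdm2, by 0.45 (SE 0.14).

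It was smaller in 595sp for Rpl3l by -0.92 (SE 0.28), with -0.81 in 595sp and 0.11 in 589bm, where both cultures lay near background and a lower value could hardly have shown, for Rpl21 by -0.78 (SE 0.19), with -0.55 in 595sp and 0.23 in 589bm, and for Rps19, mutated in human Diamond-Blackfan anaemia, by -0.40 (SE 0.13). Rpl13a, Rps10 and Rpl21 passed in all 19 fits that left out 1 array, and Rpl3l, Rps6, Rps7 and Rps19 were lost in 10, 12, 8 and 11 of them. Under median scaling 18 members passed, 17 higher and 1 lower of 59, in place of 4 higher and 3 lower, against 21.5% of all genes, whose median stood at 0.17. Rpl21 at -0.41 and Rps19 at -0.01 were then no longer called.

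**Figure D5:**
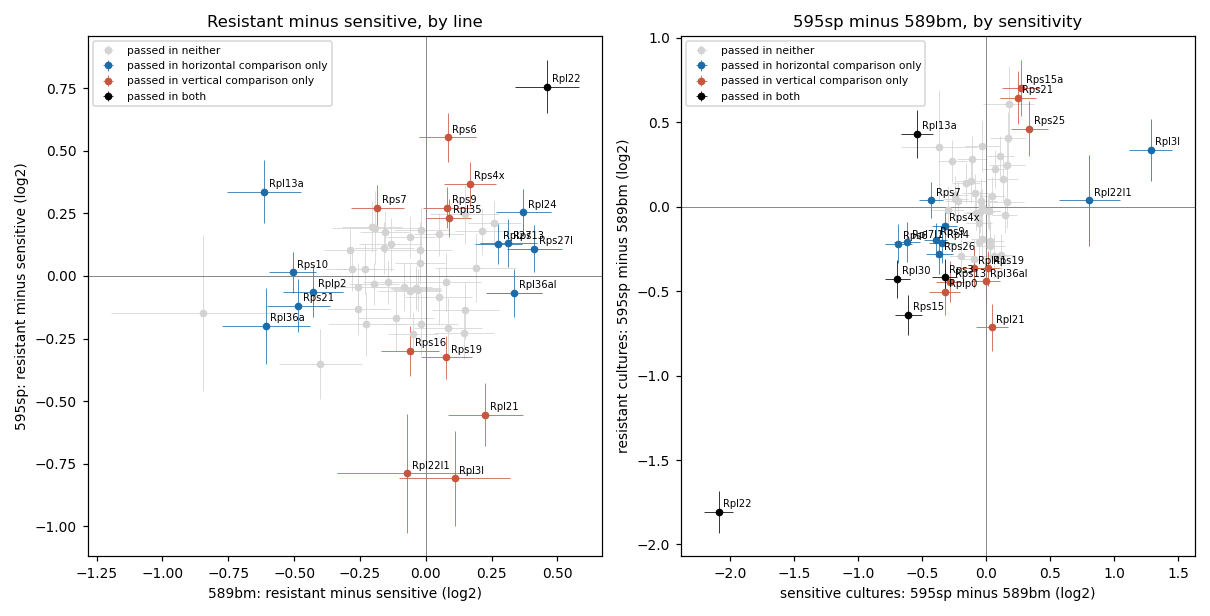
Left, resistant minus sensitive log2 difference of each tested member in 595sp (vertical) against 589bm (horizontal); right, 595sp minus 589bm in resistant (vertical) against sensitive cultures (horizontal). Bars are standard errors and colours show in which comparison the adjusted p was under 0.05; Rpl22 passed in both comparisons of each panel, at 0.76 and 0.46 on the left and -1.81 and -2.09 on the right.

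The lines differed most in Rpl22. Each line had a single culture of each sensitivity, so p-values of the line comparisons also measure the spread over times of single cultures. In the sensitive cultures it averaged 8.89 ± 0.29 in 595sp and 10.98 ± 0.23 in 589bm (SD, n = 5 arrays each), and its highest 595sp value of 9.24 lay below its lowest 589bm value of 10.61. The difference was -2.09 (SE 0.11, adjusted p = 2.05e-10, limma), the largest of any member in any comparison and lower at 5 of 5 times. In the resistant cultures the difference was -1.81 (SE 0.12, adjusted p = 9.78e-09, limma), lower at 4 of 4 times. Under median scaling the 2 differences were -1.93 and -1.20.

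Between the sensitive cultures 14 of 58 members passed (24.1%), 2 higher and 12 lower in 595sp, against 31.7% of all genes (15.6% higher and 16.2% lower). The higher ones were the paralogs Rpl3l by 1.29 (SE 0.17, adjusted p = 1.03e-05, limma), a size set against 589bm values near background with a mean of 6.55, and Rpl22l1 by 0.81 (SE 0.24, adjusted p = 0.0168, limma). Rpl22l1 averaged 6.98 in 589bm sensitive cells, also near background. Its call was lost without the 0 h or the 2 h array of either line, at 0.57 to 0.65. Below Rpl22, Rpl30 differed by -0.70 (SE 0.10), Rps6 by -0.69 (SE 0.11), Rpl7l1 by -0.62 (SE 0.10), Rps15 by -0.61 (SE 0.11) and Rpl13a by -0.54 (SE 0.12). Rps7, Rps9, Rps26, Rpl4, Rps3 and Rps4x differed by -0.43 to -0.32. Under median scaling 9 of 59 members passed, 2 higher and 7 lower, against 23.2% of all genes, and each of the 14 kept its sign.

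Rpl30, a large-subunit protein, averaged 11.44 ± 0.23 in 595sp sensitive and 12.14 ± 0.24 in 589bm sensitive cells. The highest 595sp value, 11.69, lay below the lowest 589bm value, 11.92. A second probe at 8.78 gave -0.49 (adjusted p = 0.0119, limma). Between the resistant lines that probe gave -0.05, beside -0.43 for the brightest. Rps15, near the decoding centre, averaged 13.37 ± 0.18 in 595sp sensitive and 13.98 ± 0.14 in 589bm sensitive cells, again with no overlap.

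Between the resistant cultures 14 of 58 members passed (24.1%), 4 higher and 10 lower in 595sp, against 29.3% of all genes (13.8% higher and 15.5% lower). The higher ones were Rps15a by 0.70 (SE 0.17), Rps21 by 0.65 (SE 0.16), Rps25, used by many viral internal ribosome entry sites, by 0.46 (SE 0.16), and Rpl13a by 0.43 (SE 0.14). After Rpl22, the lower ones were Rpl21 at -0.71 (SE 0.14), Rps15 at -0.64 (SE 0.12), Rplp0 at -0.50 (SE 0.14), Rps13 at -0.44 (SE 0.12), Rpl36al at -0.44 (SE 0.12), and Rpl30, Rps3, Rpl41 and Rps19 at -0.43 to -0.36, and of these only Rpl22, Rpl21 and Rps19 stayed below 0 under median scaling.

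Median scaling turned this comparison to 28 higher and 1 lower of 59 members, against 37.7% of all genes called, with the median of all genes at 0.26. Of the 14 genes 7 changed sign, 5 passed again, and these were the 4 higher genes and Rpl22. Of these genes 10 were followed through the 19 fits that left out 1 array, and Rpl22, Rpl21 and Rps15 passed in all of them. Rpl30, Rps3, Rpl41 and Rps19 were not followed. Without the 589bm resistant 16 h array Rps15a was lost at 0.51, and without either 16 h array Rps21 was lost at 0.50 and 0.51. Rpl13a, Rps25, Rplp0, Rps13 and Rpl36al were lost in 8, 6, 4, 4 and 4 of the 19 fits. Of the 5 genes that passed in both the sensitive and the resistant comparison, Rpl22, Rpl30, Rps15 and Rps3 were lower in 595sp in both, although among resistant cultures Rpl30, Rps15 and Rps3 lay above 0 under median scaling, while Rpl13a was lower among sensitive and higher among resistant cultures.

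Members of a paralog pair differed in the comparisons they passed. Rpl3 stood within 0.07 of 0 in all 14 comparisons, while Rpl3l passed in 4 of them. Rpl22 passed in 4 comparisons and Rpl22l1 in 2 of these, within 595sp and between the sensitive lines, with opposite signs. In the other two, within 589bm and between the resistant lines, Rpl22 stood at 0.46 and -1.81 and Rpl22l1 at -0.07 and 0.04. Within 589bm a fall of Rpl22l1 may not have shown, since it averaged 6.98 in sensitive cells, near the 6.47 median of all probes. Both Rpl22l1 calls were lost without single 0 h or 2 h arrays, as given above. Rpl36a and Rpl36al passed within 589bm at -0.61 and 0.34, and under median scaling stood there at -0.93 and -0.02. Rpl39 and Rps4x had paralogs below the signal filter, and Rpl7l1 and Rps27l were measured without Rpl7 and Rps27.

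The P stalk recruits the translation factors to the ribosome. Its anchor Rplp0 and the acidic proteins Rplp1 and Rplp2 passed in no response to bortezomib, with log2 changes of -0.43, 0.25 and 0.03 at 24 h in the sensitive cultures and of 0.26, -0.04 and 0.01 in the resistant ones. Rplp1 passed in no comparison, Rplp2 within 589bm and Rplp0 between the resistant lines.

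The genes outside the family whose signal followed the family's mean most closely over the 19 arrays were Rd3l, Mgarp, Gstm5, Bhlhb9, Hint2 and Map2, with Pearson's r of 0.87, 0.86, 0.84, 0.84, 0.83 and 0.82. These r values are a description over arrays that share their cultures and their normalization.

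Other messages with a TOP motif were followed through 16 genes, of which 15 were tested. In the sensitive cultures 1 of the 15 passed at 16 h, against 10.6% of all genes: Eef2, the translocation factor, at 1.10 (SE 0.23, adjusted p = 0.00703, limma). At 2, 8 and 24 h none did, against 0%, 2.56% and 14.5% of all genes. None passed in the resistant cultures or in the response difference. Within 595sp 3 of 15 passed, a share close to the 22% of all genes, all higher in resistant cells: the initiation factor Eif4b at 0.60, the nucleolar chaperone Npm1 at 0.36 and the elongation factor Eef1b2 at 0.36. Within 589bm 1 of 15 passed, against 24.2% of all genes: Btf3, of the nascent chain complex, at 0.91.

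The line difference passed for 3 of the 15, against 22.6% of all genes, at 1.04 for Eif4b, 0.57 for Eef1b2 and -0.68 for Btf3. Between the lines 4 passed in sensitive cultures, against 31.7% of all genes, all lower in 595sp, led by Eef2 at -0.90 and Eif4b at -0.73. In resistant cultures 2 passed, against 29.3% of all genes, Eef2 at -0.66 and Btf3 at -0.37.

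Among 8 chaperones that escort ribosomal proteins, Heatr3, which carries Rpl5 into the nucleus, fell by 0.80 at 16 h and 0.72 at 24 h in the sensitive cultures (adjusted p = 0.0111 and 0.0161, limma). It was the 1 of the 8 that passed at these times, against 10.6% and 14.5% of all genes. None passed at other times, in the resistant cultures or in the response difference. Pdcd2, the chaperone of Rps2, was higher by 0.60 in resistant than in sensitive 595sp cells and lower by 0.70 in resistant than in sensitive 589bm cells, a log2 difference of 1.30 between the lines (adjusted p = 3.29e-05, limma). Against 589bm, Pdcd2 in 595sp stood at 0.68 in resistant and -0.59 in sensitive cultures, and Heatr3 at 0.50 in resistant and Tsr2, the escort of Rps26, at -0.58 in sensitive cultures also passed. In all, 1 of the 8 passed within 595sp, 1 within 589bm and 1 for the line difference, against 22%, 24.2% and 22.6% of all genes. Between the sensitive lines 2 passed and between the resistant lines 2, against 31.7% and 29.3%.

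Of 9 genes that control TOP messages, 7 were tested. In the sensitive cultures Eif4ebp1, an inhibitor of cap-dependent initiation, rose by 1.15 at 8 h, its paralog Eif4ebp2 fell by 0.74 at 16 h, and Larp1, the repressor that binds the TOP motif, fell by 0.90 at 24 h (adjusted p = 0.0147, 0.0211 and 0.0332, limma). In the resistant cultures Eif4ebp2 fell by 0.82 at 16 h (adjusted p = 0.0463, limma). Eif4ebp1 was lower in resistant than in sensitive 589bm cells by 0.47, and Eif4ebp2 higher in resistant than in sensitive 595sp cells by 0.31. The line difference passed for Eif4ebp1 at 0.67, and between the lines Eif4ebp1 (0.65) and Eif4ebp2 (0.39) passed in resistant and Mtor (0.53) in sensitive cultures. At 8, 16 and 24 h in sensitive cultures 1 of the 7 passed each time, against 2.56%, 10.6% and 14.5% of all genes. In resistant cultures 1 passed at 16 h, against 1.33%. Within 589bm, within 595sp, for the line difference and between the sensitive lines 1 passed each, and 2 between the resistant lines. All-gene shares there were 24.2%, 22%, 22.6%, 31.7% and 29.3%.

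Of 10 genes of ribosome quality control, which act on stalled ribosomes and surplus subunits, 1 passed at 8 h, 4 at 16 h (3 higher, 1 lower) and 4 at 24 h (2 higher, 2 lower) in the sensitive cultures, against 2.56%, 10.6% and 14.5% of all genes. Gtpbp2, a rescue factor, rose by 1.41 and 1.65, and Ube2o, a ubiquitin ligase for unassembled ribosomal proteins, by 0.92 and 0.88. Pelo, which splits stalled ribosomes, rose by 0.64 at 16 h. Ltn1, the ligase for stalled nascent chains, fell by 0.81 and 0.70, and Edf1, a sensor of collisions, fell by 0.68 at 8 h and 0.76 at 24 h. None passed in the resistant cultures or in the response difference. Ltn1 was lower by 1.67 in resistant than in sensitive 589bm cells (SE 0.15, adjusted p = 5.96e-07, limma), and Pelo was higher by 1.46 in 595sp than in 589bm sensitive cells (SE 0.11, adjusted p = 1.38e-08, limma). In all, 4 of the 10 passed within 589bm, 1 within 595sp, 4 for the line difference, 3 between the sensitive and 2 between the resistant lines, against 24.2%, 22%, 22.6%, 31.7% and 29.3% of all genes.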

How the data were processed

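The deposited table holds non-normalized 1-colour intensity (AVG_Signal) of 45281 probes on 20 Illumina arrays, per the file headers, with no detection p-values and 0 columns of other samples. RNA was column-purified and biotin-labelled, per the labels. The authors' series matrix holds quantile-normalized intensity of the same arrays (column median 177, direction and scale as in the non-normalized table); its software is not given in the sources used here.

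From the intensities of 19 arrays, normexp background correction (offset 50), log2, quantile normalization and a filter keeping the brighter 50% of probes (22641) were run in limma 3.58.1 (R 4.3.3). Symbols came from the platform annotation, updated through Entrez numbers for 34807 of 34885 probes with 1 symbol. There were 18 with several and 10378 without, which name no gene. The kept probe with the highest mean represented a gene.

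Responses were fitted with culture as a block plus sensitivity by time, and line differences with line by time plus sensitivity within line, each with 7 residual degrees of freedom (lmFit, eBayes with trend, Benjamini-Hochberg over all kept probes, threshold 0.05). The pairing comes from the line, and 19 of 19 arrays correlated best with an array of their own culture. Named were up to 6 passing members with the largest rise and 6 with the largest fall per comparison, or the 4 with the smallest p, plus stalk and paralog genes and up to 3 genes of each other list. Genes past this limit and single probes in the text were chosen after their values were seen. The members and lists were chosen with earlier results of these data known. Alternatives were another scaling, no background correction, the series matrix, all probes, all 20 arrays, leaving out the 595spVR arrays or each array in turn, no block, no time term, and the median over probes.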

Additional observations from a re-analysis of the deposited data

Results flagged for a closer look

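The gap between resistant and sensitive cultures differed between the lines, by the test of that difference in limma, for 7 ribosomal protein genes. As the log2 gap in 595sp minus that in 589bm, the values were 0.95 for Rpl13a, 0.52 for Rps10, 0.47 for Rps6, 0.45 for Rps7, -0.40 for Rps19, -0.78 for Rpl21 and -0.92 for Rpl3l. The difference had the same sign at 4 of 4 shared times for all of these but Rps6, where it had it at 3 of 4. Under median scaling the calls of Rpl21 and Rps19 were lost, at -0.41 and -0.01. With all 20 arrays, the array without signal included, none of the 7 was called, and Rpl21 and Rps19 stood at -0.30 and -0.37. In 589bm Rpl3l lay near background in both cultures. All 3 probes of Rpl21 and the 2 kept probes of Rps19 passed, while Rpl13a, Rps10, Rps6, Rps7 and Rpl3l have 1 kept probe each.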

How the results depend on the processing

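Over the named genes 1876 values kept direction and side of the threshold under the alternatives, 255 kept direction but were lost, 10 passed newly and 19 changed sign. The counts of members called moved by over 1.5 times as follows. Median scaling gave 2 at 16 h in sensitive cultures, 20 within 589bm, 6 within 595sp, 18 for the difference of the lines, 9 between the sensitive and 29 between the resistant lines. The median over a gene's probes gave 1 at 16 h, 17 within 589bm and 11 for the difference. With all 20 arrays, the array without signal included, 0 passed at 24 h in sensitive cultures, 0 within 589bm, 0 within 595sp, 0 for the difference, and 2 and 2 between the sensitive and the resistant lines. Without the replicate block 0 passed at 24 h, and without the time term 7 within 589bm. Leaving out each array gave 0 to 5 at 16 h, 5 being without the 595sp sensitive 16 h array, and 0 to 3 at 24 h. It gave 4 to 13 within 589bm, 6 to 12 within 595sp, 4 to 10 for the difference, and 12 to 17 and 6 to 20 between the sensitive and the resistant lines. The cause was not tested.

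Signs changed under median scaling for Rpl4 at 16 h in sensitive cultures (-0.12), within 589bm for Rpl36al (-0.023), Rps13 (-0.12) and Rpl27 (-0.16), and between the resistant lines for Rps15 (0.12), Rplp0 (0.13), Rps13 (0.23) and Rpl36al (0.28). With all 20 arrays they changed for Rpl37 at 2 h in resistant cultures (-0.038), within 589bm for Rps27l (-1.02), Rpl36al (-0.63), Rps13 (-0.29) and Rpl27 (-0.99), and between the resistant lines for Rps15 (0.39), Rplp0 (0.42), Rps13 (0.15) and Rpl36al (0.55). With the median over probes they changed for Rpl21 at 8 h in sensitive cultures (-0.021) and Rps2 at 2 h in resistant cultures (-0.050).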

Other observations

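The neighbours of Rpl22 on chromosome 4 (gene order of GRCm38.p6) were looked up after its difference between the lines was seen. Among the 5 genes on either side that were tested, Espn, an actin-bundling protein, was lower in 595sp than in 589bm sensitive cells by a log2 of -1.78, Nphp4 by -1.23, A430005L14Rik by -0.95, Icmt, a methyltransferase of prenylated proteins, by -0.94 and Kcnab2, a potassium channel subunit, by -0.87. The largest adjusted p of these 5 was 2.33e-05 (limma). Nol9, Acot7, Rnf207, Chd5 and Ccdc27 stood at -0.27, -0.08, 0.06, -0.05 and -0.03 and did not pass. Within 595sp, Espn, Nphp4, A430005L14Rik, Icmt and Kcnab2 were higher in resistant than in sensitive cells by 0.84, 0.79, 0.61, 0.47 and 0.41, beside 0.76 for Rpl22. Between the resistant lines Espn stood at -2.25, Kcnab2 at -0.91, A430005L14Rik at -0.86, Acot7 at -0.63 and Nphp4 at -0.62, beside -1.81 for Rpl22, and these passed, while Icmt at -0.38 and the other four did not. The look-up was repeated around Rpl3l on chromosome 17. Between the sensitive lines and within 595sp the neighbours that passed shared a direction, opposite to that of Rpl3l. Between the resistant lines they did not share one. Between the sensitive lines, where Rpl3l stood at 1.29, its neighbours Hagh, Fahd1, Gfer and Zfp598 were lower in 595sp, at -1.05, -0.97, -0.84 and -0.66, and Tbl3, Rps2, Ndufb10, Msrb1, Meiob and Igfals did not pass. Within 595sp, where Rpl3l stood at -0.81, Hagh at 0.62 and Fahd1 at 0.40 were higher in resistant than in sensitive cells. Between the resistant lines Rpl3l stood at 0.34 and did not pass. There Fahd1 at -0.80 and Gfer at -0.33 passed as lower in 595sp, and Ndufb10 at 0.81 passed as higher. Of all genes, 31.7% passed between the sensitive lines, 22% within 595sp and 29.3% between the resistant lines. Copy number was not measured, and the cause was not tested.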
